A study of Homo sapiens with 6 samples.

Results

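CDH7, SLITRK3, EPHA3 and TENM1 are 4 genes for cell-surface proteins of the nervous system, read here in LNCaP, a human cell line established from prostate cancer. They were picked from a table of 17297 genes as neuronal surface genes that differed between the LNCaP lines, 3 of them higher and TENM1 lower in the line with added GNA13. All 4 were found in the table by symbol, and all 4 had a mean of at least 1 in counts-per-million (CPM) over the 6 libraries. Their difference between the lines is therefore given as a description, without a test.

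The study compared LNCaP cells stably transduced with an empty retroviral plasmid (pBabe-vector) with cells transduced with the same plasmid carrying wild-type GNA13 cDNA (pBabe-GNA13), both kept under puromycin. The labels give the genotype of both as WT. Each condition is 1 stable line, and 3 biological replicates of each were seeded at equal cell number and cultured for 48 h before total RNA was sequenced as paired-end reads. P-values therefore measure the spread between cultures of 1 line per condition, so an effect of GNA13 and a difference between the 2 lines cannot be told apart. One library of each line carries the tag std in its heading. In pBabe-vector it is replicate 1, and in pBabe-GNA13 it is called the std library, because its heading does not give it a number of its own.

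Gα13, the product of GNA13, is the alpha subunit of a heterotrimeric G protein that passes on signals from surface receptors. The 4 proteins act at contacts between cells. CDH7 is a classical cadherin of type II, which binds other cadherins in the presence of calcium and is tied to the actin skeleton through catenins. SLITRK3 is a leucine-rich repeat protein of the synapse that binds a receptor phosphatase of the LAR type. EPHA3 is a receptor tyrosine kinase that is activated by ephrin-A ligands, above all ephrin-A5, and can make cells round up and repel each other. TENM1 is a teneurin, a very large transmembrane protein that binds latrophilin receptors on neighbouring cells.

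The 6 libraries held 33002160 to 40628970 reads in genes, so that 1 read equalled 0.0246 to 0.0303 CPM and 3 reads, taken as the floor, 0.0738 to 0.0909 CPM. These values for 1 and 3 reads use the plain library totals. The CPM values of genes are scaled by TMM, a factor that corrects for library composition. GNA13 (ENSG00000120063.10) checked the labels: it stood at 820, 886 and 747 CPM in the pBabe-GNA13 libraries (std, replicates 2 and 3) and at 76.7, 69.4 and 65.4 CPM in pBabe-vector (replicates 1, 2 and 3). Its log2 fold change was 3.54 (edgeR quasi-likelihood test, Benjamini-Hochberg adjusted p = 9.12e-05). All 10 luminal prostate markers were measured, and their summed level of 7080 to 10200 CPM in pBabe-GNA13 overlapped that of 6170 to 9140 CPM in pBabe-vector. Of 12 neuronal markers, 7 were measured, at a sum of 17.0 to 37.1 CPM in pBabe-GNA13 and 18.4 to 33.9 CPM in pBabe-vector. Among the neuronal markers, SNAP25, NEFM and GAP43 lay below the floor in every library, while MAP2 and NEFL made up most of the sum. In bulk RNA, fewer cells with a transcript and less of it per cell cannot be told apart.

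The 4 genes lie on 3 chromosomes of GRCh38 and share no locus (positions and exons from Gencode 44). CDH7 (ENSG00000081138.14) spans 140.1 kb of chromosome 18, from 65750252 to 65890337 on the plus strand, and its canonical transcript has 12 exons for 784 codons. SLITRK3 (ENSG00000121871.4) is compact, with 2 exons for 976 codons in 10.4 kb of chromosome 3, from 165186720 to 165197109 on the minus strand. EPHA3 (ENSG00000044524.11) lies on the plus strand of chromosome 3, from 89107621 to 89482134, and codes for 982 residues in 17 exons. TENM1 (ENSG00000009694.14) covers 828.4 kb on the minus strand of chromosome X, from 124375903 to 125204312, with 31 exons for 2724 codons. TENM1 overlaps STAG2 on the opposite strand, EPHA3 overlaps an antisense long non-coding RNA, and CDH7 overlaps one on its own strand (ENSG00000263720). Because the sources used here do not state whether reads were counted by strand, reads of overlapping genes cannot be told apart. STAG2 itself had a log2 fold change of 0.01.

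The start regions of the 4 genes are shown because 3 of the genes stood higher together while TENM1 stood lower. Each sequence is the 250 bases before a transcript start in RefSeq (GRCh38.p14), read 5′ to 3′ on the strand of the gene. Capitals mark CAGCTG, an E-box of the type bound by basic helix-loop-helix factors. The windows lie at chr18:65750762-65751011 for CDH7 (plus strand), chr3:165196385-165196634 for SLITRK3 (minus strand) and chr3:89107371-89107620 for EPHA3 (plus strand). For TENM1 (minus strand) both starts are given, the canonical one at chrX:124963818-124964067 and one that lies 240495 bases upstream of it at chrX:125204313-125204562. CDH7 and SLITRK3 also have a second start in RefSeq, 760 and 725 bases upstream of the canonical start shown. The windows of these second starts are not printed.
CDH7: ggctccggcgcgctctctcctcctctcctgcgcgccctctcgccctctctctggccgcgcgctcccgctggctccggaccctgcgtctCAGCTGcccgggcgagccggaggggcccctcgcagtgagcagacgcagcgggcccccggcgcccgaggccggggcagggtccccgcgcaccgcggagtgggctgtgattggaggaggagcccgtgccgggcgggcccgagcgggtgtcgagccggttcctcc
SLITRK3: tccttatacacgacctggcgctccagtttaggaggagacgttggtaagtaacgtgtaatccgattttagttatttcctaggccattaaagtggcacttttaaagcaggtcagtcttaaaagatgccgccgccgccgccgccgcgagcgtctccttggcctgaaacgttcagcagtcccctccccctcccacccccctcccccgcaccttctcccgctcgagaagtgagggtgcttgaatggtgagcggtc
EPHA3: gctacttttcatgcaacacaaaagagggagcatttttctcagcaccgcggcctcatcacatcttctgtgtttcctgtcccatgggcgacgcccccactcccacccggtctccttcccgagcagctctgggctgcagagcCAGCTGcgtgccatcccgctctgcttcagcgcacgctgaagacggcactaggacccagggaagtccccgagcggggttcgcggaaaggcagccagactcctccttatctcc
TENM1 canonical start: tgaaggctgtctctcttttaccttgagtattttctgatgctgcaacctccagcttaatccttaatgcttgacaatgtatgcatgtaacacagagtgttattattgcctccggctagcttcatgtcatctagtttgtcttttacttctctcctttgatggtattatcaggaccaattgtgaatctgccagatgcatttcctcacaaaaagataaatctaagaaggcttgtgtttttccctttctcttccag
TENM1 upstream start: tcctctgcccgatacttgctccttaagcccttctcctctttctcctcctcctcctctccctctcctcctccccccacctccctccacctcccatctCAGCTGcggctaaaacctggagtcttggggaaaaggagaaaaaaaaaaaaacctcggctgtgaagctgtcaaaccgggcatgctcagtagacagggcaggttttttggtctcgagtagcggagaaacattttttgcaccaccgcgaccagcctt

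These start regions differ widely in base composition. The CDH7 window is 78.4% G and C with 33 CpG dinucleotides, the EPHA3 window 61.2% with 15, and the SLITRK3 window 56.4% with 18. The window at the canonical TENM1 start is poor in both, at 39.2% and 1 CpG, whereas the upstream TENM1 window has 54.0% and 8. The windows of the second starts of CDH7 and SLITRK3 have 45.6% with 6 CpG and 46.4% with 8 CpG. The canonical TENM1 window lies inside the gene, 240495 bases downstream of the upstream start. It ends in a pyrimidine-rich stretch followed by AG, the letters of a splice acceptor. Its composition may therefore not be that of a promoter, and whether transcription starts there was not tested. The median over 35116 RefSeq promoters of this length is 58.0% G and C with 11 CpG. Both strands of each window were searched for 7 motifs of factors and promoter elements. The TEAD motif (GGAATG) is held by 11.9% of all promoters of this length, and the TATA box (TATAAA) by 10.7%. The AP-1 site (TGANTCA) is held by 6.57% and the CRE (TGACGTCA) by 1.65%. The CArG box of serum response factor is held by 1.16%, the left part of the REST site (TTCAGCACC) by 0.288% and the E-box (CAGCTG) by 14.0%. Of these, only the E-box was found in the windows of the 4 genes. It lies 162 bases before the canonical start of CDH7, 111 bases before that of EPHA3 and 154 bases before the upstream start of TENM1, with no other match overlapping it. A match describes these letters only and is not a measured binding site.

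CDH7 had the largest fold difference of the 4 genes. In pBabe-GNA13 it stood at 12.6 CPM (std), 21.1 CPM (replicate 2) and 15.0 CPM (replicate 3), from 472, 720 and 517 reads. In pBabe-vector it stood at 0.882, 0.709 and 1.93 CPM (replicates 1, 2 and 3), from 37, 24 and 62 reads. The groups did not overlap: the lowest pBabe-GNA13 library lay far above the highest pBabe-vector library, which was replicate 3. The means were 16.3 ± 4.39 CPM and 1.17 ± 0.662 CPM (SD, n = 3 each), a ratio of 13.9, and the log2 fold change was 3.80 (standard error 0.39). Within pairs of libraries that share a number or tag, the log2 difference was 3.76 in the std pair, 4.79 in replicate 2 and 2.92 in replicate 3. The SD was 56.4% of the mean in pBabe-vector and 27.0% of the mean in pBabe-GNA13. Relative to its level, CDH7 thus varied more between cultures in the line where it was low.

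EPHA3 had the fewest reads of the 4 genes in pBabe-vector. There were 18, 20 and 7 reads (0.429, 0.591 and 0.218 CPM in replicates 1, 2 and 3), and 175, 98 and 102 reads in pBabe-GNA13 (4.68, 2.88 and 2.96 CPM). The 7 reads of pBabe-vector replicate 3 have an exact Poisson interval (95%) of 2.8 to 14.4 reads, or 0.0877 to 0.449 CPM, which reaches the floor of that library. Such intervals and floors cover counting error alone, because several reads can stem from 1 molecule. Every pBabe-GNA13 library lay above every pBabe-vector library, and the std library was the highest. The mean was 3.51 ± 1.02 CPM against 0.413 ± 0.187 CPM (SD, n = 3 each), 8.51 times higher, with a log2 fold change of 3.07 (standard error 0.38) and pair differences of 3.29, 2.18 and 3.46 (std, replicates 2 and 3).

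SLITRK3 was the most abundant of the 4 genes in CPM in both lines. Its values were 31.9, 38.7 and 44.9 CPM in pBabe-GNA13 (std, replicates 2 and 3) and 5.99, 8.95 and 6.79 CPM in pBabe-vector (replicates 1, 2 and 3), from at least 218 reads in each library. The std library was the lowest of its line in both cases, and the groups did not overlap. The means were 38.5 ± 6.48 CPM in pBabe-GNA13 and 7.24 ± 1.53 CPM in pBabe-vector (SD, n = 3 each), a ratio of 5.31. The log2 fold change was 2.41 (standard error 0.20), and the pair differences of 2.40, 2.11 and 2.71 lay closer together than those of CDH7 and EPHA3.

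TENM1 went the other way. Its values were 1.71, 1.68 and 1.37 CPM in pBabe-GNA13 (64, 57 and 47 reads) and 5.60, 7.38 and 5.05 CPM in pBabe-vector (235, 250 and 162 reads). Each pBabe-vector library lay above each pBabe-GNA13 library, and replicate 3 was the lowest of both lines. The means were 1.58 ± 0.190 CPM and 6.01 ± 1.22 CPM (SD, n = 3 each), so that pBabe-vector was 3.79 times higher. The log2 fold change was -1.92 (standard error 0.22), and the pair differences were -1.68, -2.10 and -1.84.

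**Figure D1:**
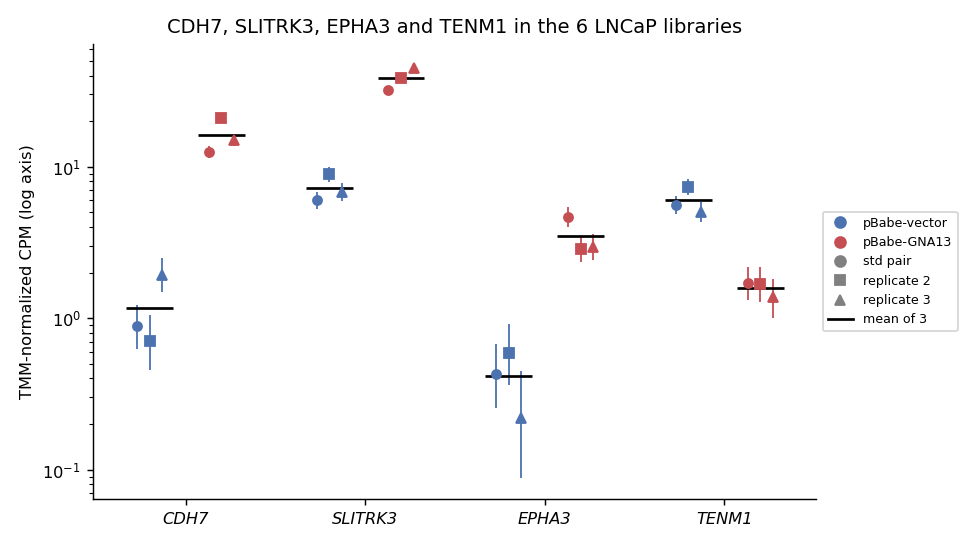
TMM-normalized CPM on a log axis for each of the 4 genes in the 3 pBabe-vector (blue) and 3 pBabe-GNA13 (red) libraries. Marker shapes give the library pair, vertical lines the exact Poisson interval (95%, counting error only) and horizontal bars the mean of 3; CDH7, SLITRK3 and EPHA3 lie higher in all 3 red libraries (lowest 12.6, 31.9 and 2.88 CPM), and TENM1 lies lower (highest 1.71 CPM).

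By size of fold change among the 14059 genes with a mean of at least 1 CPM, CDH7 was 8th, EPHA3 14th and SLITRK3 20th from the top, and TENM1 was 4th from the bottom. In the edgeR quasi-likelihood fit with Benjamini-Hochberg adjustment over all genes, 0.139% of genes were called at an adjusted p under 0.05, 0.116% higher and 0.0231% lower in pBabe-GNA13. With the library pair as a block, 19.7% were called, 9.32% higher and 10.4% lower. Groups did not overlap for 14.1% of genes. The 4 genes are in the called set of both fits (3 higher, 1 lower) and in the set without overlap. Since they were picked on this contrast, nothing can be read from that or from their ranks. EPHA3 also reached a mean of 1 CPM only through pBabe-GNA13 (3.51 CPM, against 0.413 CPM in pBabe-vector).

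Per kilobase of exons, the order of the 4 genes differed between the lines. In pBabe-vector, SLITRK3 stood at 1.37 ± 0.29 CPM per kb, TENM1 at 0.444 ± 0.09, CDH7 at 0.0808 ± 0.0456 and EPHA3 at 0.0627 ± 0.0284 (SD, n = 3). CDH7 (0.0488 to 0.133 CPM per kb) and EPHA3 (0.0332 to 0.0898 CPM per kb) overlapped, so their order there is not resolved. In pBabe-GNA13, SLITRK3 stood at 7.30 ± 1.23 CPM per kb, CDH7 at 1.12 ± 0.302, EPHA3 at 0.534 ± 0.155 and TENM1 at 0.117 ± 0.014, with no overlap between neighbours in this order. TENM1 went from second to last.

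Set against the measured genes of their own families per kb of exons, the 4 genes took different places. CDH7 was 6th of 11 measured classical cadherins in pBabe-vector and 3rd in pBabe-GNA13, where it still made up 0.944% of the summed level of the family against 0.0702%. CDH1, or E-cadherin, the epithelial cadherin, made up nearly all of the rest at 111 ± 16.1 CPM per kb in pBabe-vector and 114 ± 16.0 in pBabe-GNA13 (SD, n = 3). EPHA3 moved from 11th to 8th of 13 Eph receptors, from 0.197% to 1.89% of their sum, far below EPHB4. Neither place is resolved, since EPHA3 overlapped EPHA5 in pBabe-vector and EPHB2 in pBabe-GNA13. SLITRK3 and SLITRK6 were the measured SLITRK genes, and the share of SLITRK3 was 40.9% in pBabe-vector, where the levels per kb of both overlapped, and 69.4% in pBabe-GNA13. TENM1 was first of 2 measured teneurins in both lines, with 99.3% and 93.7% of their sum.

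Differences between cultures that both lines of a pair share were tested as well, since the choice of the genes did not use them. Deviations in opposite directions in the 2 lines, as seen for CDH7 and EPHA3, count as residual spread in this test. The pair of libraries was tested in the blocked edgeR fit (quasi-likelihood F test of the pair terms, Benjamini-Hochberg adjustment over all genes), and 47.4% of all genes were called. Of the 4 genes, 1 was called, which is no more than that background gives. For SLITRK3 the adjusted p was 0.00481: the mean log2 CPM of the std pair was 3.80, against 4.22 in replicate 2 and 4.13 in replicate 3. For CDH7 the adjusted p of the pair effect was 0.0554, for EPHA3 0.134 and for TENM1 0.139, so these did not pass in edgeR. The count rested on single pairs. Without the std pair none of the 4 was called, with adjusted p of 0.997 for SLITRK3, 0.513 for CDH7, 0.557 for EPHA3 and 0.0532 for TENM1. Without the pair of replicate 2, 3 were called, SLITRK3 (adjusted p = 0.000677), CDH7 (0.0143) and EPHA3 (0.0272), and without that of replicate 3, SLITRK3 (0.00109) and CDH7 (0.00736).

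**Figure D2:**
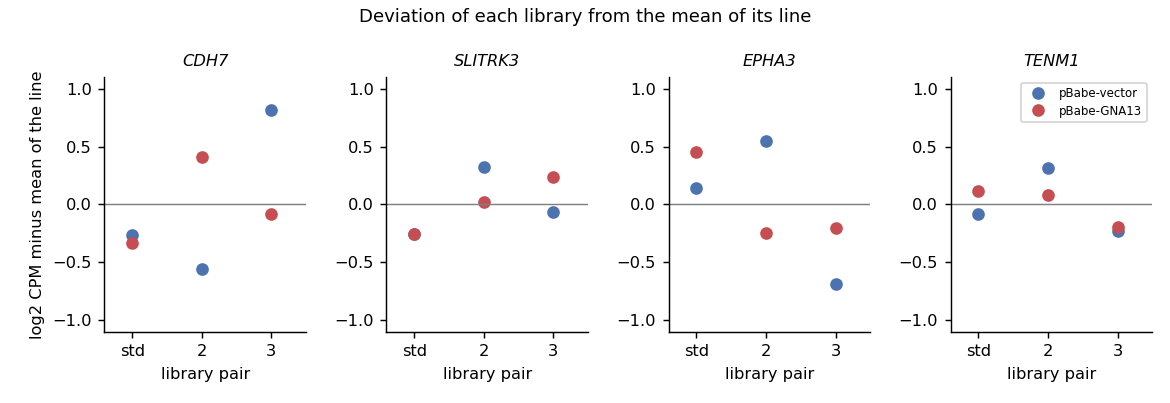
Log2 CPM of each library minus the mean of its line (vertical axis) for the std pair and the pairs of replicates 2 and 3 (horizontal axis), with pBabe-vector in blue and pBabe-GNA13 in red. For SLITRK3 the std libraries of both lines lie below the line mean at the same height, for TENM1 both replicate 3 libraries lie below it, and the lines deviate in opposite directions for CDH7 in replicates 2 and 3 and for EPHA3 in replicate 2.

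The spread between cultures can be set beside counting error. For CDH7 the coefficient of variation was 27.0% in pBabe-GNA13 and 56.4% in pBabe-vector, while Poisson counting alone would give 4.19% and 15.6%. SLITRK3 varied by 16.8% and 21.1%, with counting parts of 2.72% and 6.23%, and EPHA3 by 29.0% and 45.3%, with counting parts of 8.94% and 25.8%. TENM1 in pBabe-GNA13 varied by 12.0%, below the 13.4% of its counting error, and in pBabe-vector by 20.3% against 6.81%.

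Over the 6 libraries, log2 CPM of CDH7, SLITRK3 and EPHA3 went together (Pearson's r of 0.871 to 0.948) and opposite to TENM1 (-0.981 to -0.898), as the choice of the genes implies. After the mean of each line was removed, r was 0.801 for EPHA3 and TENM1, 0.251 for SLITRK3 and TENM1 and 0.044 for SLITRK3 and EPHA3. It was -0.941 for CDH7 and EPHA3, -0.611 for CDH7 and TENM1 and -0.156 for CDH7 and SLITRK3. Within the lines, cultures with more CDH7 had less EPHA3. These values describe 6 libraries that share their library scaling, and carry no test.

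Each gene was next set beside its known partners and relatives. Of 132 such genes in 10 lists, 90 were measured, and 0 of the 90 were called by edgeR without the block (18 had an unadjusted p under 0.05, and the lowest adjusted p was 0.0997, for CDH8). DESeq2 called 8 of them (4 higher, 4 lower) and limma-trend 0. With the library pair as a block, edgeR called 29 of 90 (32.2%, against 19.7% of all genes), 15 higher and 14 lower. The median log2 fold change over the 90 was 0.03. The calls named below are those of the blocked edgeR fit with Benjamini-Hochberg adjustment. Without the block each of these relatives missed the threshold in edgeR, whereas the 8 calls of DESeq2 were made without the block.

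Among 10 measured relatives of CDH7 in the classical cadherins, 0 were higher and 2 were lower in pBabe-GNA13 with the block. CDH8, another type II cadherin of the brain, stood at 0.990, 1.12 and 1.22 CPM in pBabe-GNA13 and at 2.79, 2.63 and 2.81 CPM in pBabe-vector, without overlap (log2 fold change -1.30, block adjusted p = 3.33e-05). CDH3, or P-cadherin, had a mean of 2.42 ± 0.488 CPM against 4.34 ± 1.42 CPM (SD, n = 3 each), with overlapping groups (log2 fold change -0.84, block adjusted p = 4.81e-04). CDH1 was abundant and had a log2 fold change of 0.04 (block adjusted p = 0.643). Of 4 measured catenins, which link cadherins to actin, 0 were called in either fit by edgeR, 0 by DESeq2 and 0 had an unadjusted p under 0.05, with CTNND1 (p120 catenin) at 0.07 and JUP (plakoglobin) at -0.06 on the log2 scale.

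For SLITRK3, the measured relative SLITRK6 was higher as well with the block. SLITRK6 stood at 15.4, 15.4 and 11.9 CPM in pBabe-GNA13 and 11.6, 8.03 and 6.70 CPM in pBabe-vector (log2 fold change 0.70, block adjusted p = 1.07e-05). Its groups came close at their edges but did not overlap. Of the 6 measured LAR-type phosphatases and further ligands of them, 2 were higher and 0 lower with the block. PTPRF, which encodes LAR itself, had a mean of 760 ± 115.5 CPM in pBabe-GNA13 and 681 ± 110.1 CPM in pBabe-vector (SD, n = 3 each), with overlapping groups (log2 fold change 0.16, block adjusted p = 0.0199). Without the pair of replicate 3, PTPRF was not called (adjusted p = 0.0675). PTPRS, another phosphatase of this class, had a mean of 170.2 CPM in pBabe-GNA13 and 171.6 CPM in pBabe-vector (log2 fold change -0.01, block adjusted p = 0.969). PTPRD, also of this class, was not measured. IL1RAPL1, a synaptic ligand of this phosphatase class, had 5.61 ± 0.934 CPM against 3.28 ± 0.599 CPM without overlap (log2 fold change 0.77, block adjusted p = 3.68e-04). LRRC4B, another ligand, had at most 12 reads in any library and was not called (log2 fold change -0.85).

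The Eph receptors called with the block went opposite to EPHA3, which was itself picked for its rise. Of 12 other measured receptors, 6 were lower and 0 higher in pBabe-GNA13 with the block. Over all genes the block called 10.4% lower and 9.32% higher. Without the block edgeR called 0 of the 12. The log2 fold change was negative for 8 of them and positive for 4, with a median of -0.21, against -0.0013 over all genes. EPHA7, a receptor of the same class as EPHA3, stood at 63.6, 51.7 and 57.6 CPM in pBabe-GNA13 and 85.4, 84.2 and 86.7 CPM in pBabe-vector (log2 fold change -0.57, block adjusted p = 1.97e-08). EPHA6 stood at 7.28, 5.02 and 5.17 CPM and 13.7, 12.3 and 8.69 CPM (log2 fold change -0.99, block adjusted p = 3.33e-07). Neither gene overlapped between the lines. EPHB4, the most abundant receptor in CPM per kb, had a log2 fold change of -0.17 (block adjusted p = 0.0399) with overlapping groups, and was not called without the pair of replicate 2 (adjusted p = 0.186) or replicate 3 (0.464). The count of receptors depended on the pairs: without the std pair 5 were lower and 1 higher, without that of replicate 2 it was 3 lower, and without that of replicate 3 it was 4 lower.

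The ligands of this receptor family were divided. Of 7 measured ephrins, 2 were higher and 2 lower with the block. EFNA5, which encodes ephrin-A5, stood at 109.9, 84.9 and 136 CPM in pBabe-GNA13 and 64.2, 45.4 and 77.7 CPM in pBabe-vector (log2 fold change 0.82, block adjusted p = 4.98e-12). EFNB2, a ligand of EphB receptors, had a mean of 181 ± 24.6 CPM against 105 ± 15.6 CPM (SD, n = 3 each; log2 fold change 0.79, block adjusted p = 7.83e-12). Both genes were higher in all 3 pairs, without overlap between the lines. Of 10 measured effectors of Eph signalling, 1 was lower with the block, VAV3 at 0.815 CPM against 1.57 CPM (log2 fold change -0.94, block adjusted p = 0.0101). Without the pair of replicate 3, 0 of the 10 were called, with VAV3 at an adjusted p of 0.109 in edgeR. ADAM10, the protease that cleaves ephrins, and the adaptor NCK2 were not called (log2 fold changes of -0.10 and 0.20).

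**Figure D3:**
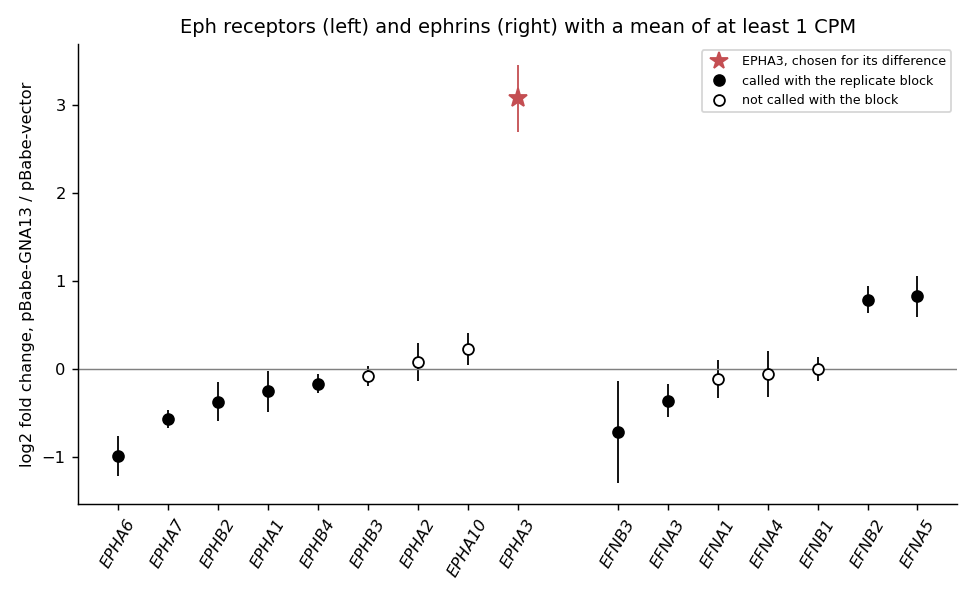
Log2 fold change of pBabe-GNA13 over pBabe-vector with its standard error (vertical axis) for Eph receptors (left) and ephrins (right) with a mean of at least 1 CPM. Filled points were called by edgeR with the replicate block and open points were not; EPHA3 (star, 3.07) was chosen for its difference, EPHA7 (-0.57) and EPHA6 (-0.99) lie below 0, and EFNA5 (0.82) and EFNB2 (0.79) above it.

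For TENM1, 1 further teneurin was measured, TENM3, which lay close to the floor and was not called. Of 9 measured latrophilins, FLRT and UNC5 proteins, which take part in teneurin complexes, 2 were higher and 2 lower with the block. ADGRL1, the most abundant latrophilin, stood at 220.3, 233 and 252 CPM in pBabe-GNA13 and 206, 254 and 240.3 CPM in pBabe-vector (log2 fold change 0.01, block adjusted p = 0.912). ADGRL2 had a mean of 0.831 ± 0.143 CPM against 0.248 ± 0.175 CPM (SD, n = 3 each; log2 fold change 1.70, block adjusted p = 0.00544). UNC5C, a netrin receptor, had 0.689 ± 0.249 CPM against 1.76 ± 0.269 CPM (log2 fold change -1.35, block adjusted p = 3.40e-04). Neither ADGRL2 nor UNC5C overlapped between the lines, and both rest on few reads. Without the pair of replicate 2, ADGRL2 was not called (log2 fold change 1.17, adjusted p = 0.0816), and of the 9 genes 0 were higher and 1 lower.

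Of 30 further neural adhesion genes that were measured, 8 were higher and 1 lower in pBabe-GNA13 with the block, and the fold change was positive for 23 and negative for 7. With 1 pair left out, 5 to 7 were higher and 1 lower. Their median log2 fold change was 0.43, or 0.17 where low genes (mean under 1 CPM) were left out. NLGN1, the synaptic protein neuroligin, stood at 1.34, 1.23 and 1.63 CPM in pBabe-GNA13 and 0.453, 0.325 and 0.499 CPM in pBabe-vector (log2 fold change 1.71, block adjusted p = 1.46e-04). SLIT1, a secreted guidance cue, had 3.28 ± 1.81 CPM against 1.03 ± 0.261 CPM (SD, n = 3 each; log2 fold change 1.67, block adjusted p = 3.57e-06). NCAM2, a homophilic adhesion molecule and the most abundant of the list, had 498 CPM against 415 CPM with overlapping groups (log2 fold change 0.27, block adjusted p = 4.94e-04).

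The genes around the 4 genes were examined in the same fits. The 5 nearest measured genes on each side of each of the 4 genes gave 40 neighbours. Only DSEL was called without the block, 1.62 Mb beyond the end of CDH7, at 119, 108 and 126 CPM in pBabe-GNA13 and 65.3, 64.7 and 67.1 CPM in pBabe-vector (log2 fold change 0.84, edgeR adjusted p = 0.0352, and 5.67e-12 with the block). With any 1 library left out DSEL was no longer called, at adjusted p of 0.0501 to 0.246. With the block, 3 of 40 were higher and 6 lower, or 22.5%, near the 19.7% of all genes. The nearest cadherin gene, CDH19, lies 0.611 Mb from CDH7 and had 0.0663 ± 0.0735 CPM in pBabe-GNA13 and no reads in pBabe-vector. BCHE, 0.576 Mb from SLITRK3, stood at 110.3, 161 and 85.1 CPM against 60.4, 97.5 and 37.1 CPM, with overlapping groups (log2 fold change 0.87, block adjusted p = 3.43e-11). On the other side of SLITRK3, at 3.93 Mb, NMD3 was lower with the block (log2 fold change -0.52, block adjusted p = 3.94e-08). PROS1, 4.39 Mb beyond EPHA3, was lower as well (-0.90, 5.28e-06). C3orf38, 0.939 Mb away on the other side of EPHA3, and SMARCA1, 4.24 Mb from TENM1, were not called (log2 fold changes of 0.16 and 0.35).

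Of the 10 neighbours of CDH7, 5 had a mean of at least 1 CPM, and their median log2 fold change was -0.01. Over all 10 it was 0.28, with near-zero genes such as CDH19 in it. For the neighbours of SLITRK3, EPHA3 and TENM1, with 9 of 10 at that level in each case, the median was -0.08, -0.03 and -0.10. Over whole chromosomes, among genes with a mean of at least 1 CPM, the median was -0.02 on chromosome 18, -0.04 on chromosome 3 and -0.05 on chromosome X. Other chromosomes were shifted as a whole. On chromosome 12 the median was 0.30, and with the block 440 of 620 genes at that level were higher and 10 lower. On chromosome 20 it was -0.21, with 15 of 337 higher and 172 lower.

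Some markers of other cells moved with some libraries. Of 10 blood cell markers, 3 were measured, and HBB (beta-globin) stood at 30.3 CPM (std), 0 CPM (replicate 2) and 33.5 CPM (replicate 3) in pBabe-GNA13 and at 3.05, 0 and 3.09 CPM in pBabe-vector. HBA1 and HBA2 followed the same libraries, and the sum of the 3 ranged from 0.0881 to 46.0 CPM in pBabe-GNA13 and from 0.0295 to 4.05 CPM in pBabe-vector. Of 10 fibroblast markers, 9 were measured at a sum of 18.0 to 26.6 CPM against 12.8 to 24.3 CPM. Their log2 fold change was positive for 6 and negative for 3. COL1A2 stood at 2.57, 0 and 2.53 CPM against 0.0477, 0 and 0.0935 CPM. COL1A1, the most abundant of them, stood at 22.03, 17.25 and 16.43 CPM against 23.13, 23.12 and 11.47 CPM (log2 fold change -0.05). In replicate 2, HBB and COL1A2 were at 0 in both lines, while COL1A1 was present in both. The log2 differences of that pair were 4.79 for CDH7, 2.11 for SLITRK3, 2.18 for EPHA3 and -2.10 for TENM1. These differences belong to the contrast on which the 4 genes were picked, and a link to the markers was not tested. Of 10 neuroendocrine markers, 4 were measured, at a sum of 39.0 to 72.6 CPM in pBabe-GNA13 and 52.4 to 77.3 CPM in pBabe-vector. No marker list had a gene called without the block, and with it 0 of 7 neuronal markers were called, while 2 neuroendocrine markers, SYP and ENO2, were lower. The block also called 3 of 3 blood cell, 2 of 9 fibroblast and 4 of 10 luminal markers, all higher in pBabe-GNA13. Over all genes it called 19.7%, 9.32% higher and 10.4% lower. The marker lists were short and were not tested as sets.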

How the data were processed

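RNA of 6 cultures of LNCaP cells (3 pBabe-vector, 3 pBabe-GNA13) was measured by RNA-seq. Per the labels and the methods of the study, the authors assessed reads with FastQC 0.11.7, aligned them with STAR to a Gencode transcriptome and summed them with featureCounts of the Rsubread package. The values the authors deposited are read counts by symbol, all whole numbers and without normalization, although the study's methods describe TMM and limma. All 6 columns were used and 0 were left out. The version of STAR, the strand setting and the gene filter were not given in the sources used here.

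Counts of all 17297 genes were scaled by TMM and tested by quasi-likelihood in edgeR 4.0.16 under R 4.3.3 (glmQLFit, glmQLFTest), with line as the only term, no filter and Benjamini-Hochberg adjustment, and genes were called at an adjusted p under 0.05. A second fit added the library pair as a block. Pairs came from the replicate numbers and the tag std in the headings. Deviations from the line means correlated within pairs at 0.659 (std), 0.807 (replicate 2) and 0.888 (replicate 3) over 12778 genes, and at -0.736 to 0.125 between pairs, so the numbers were taken to pair the libraries. The pair effect was tested in the blocked fit. Log2 CPM used a prior count of 2. Alternatives were DESeq2 1.42.0, limma-trend (limma 3.58.1), DESeq2 size factors, scaling by total count, a filter at a mean of 1 CPM, a prior count of 0.5, the block, and leaving out each library or pair. The fits were tested on simulated data.

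CPM per kb divides CPM by the union of exons in Gencode 44, which placed 14363 of the 17297 symbols. Promoters come from RefSeq. Python 3.11.15, pandas 2.3.3, SciPy 1.17.1 and matplotlib 3.10.9 were used. The 4 genes and all lists were chosen with earlier results of these data known. Genes named beside them are, per list, the most abundant, any called and the 2 with the smallest p, then the nearest measured neighbours and the 3 genes most like each of the 4. DSEL, PTPRS, the markers and the further Eph and ephrin genes in the plot lie outside this rule, as their values were known when they were named.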

Additional observations from a re-analysis of the deposited data

How the results depend on the processing

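The log2 fold changes of the 4 genes kept their sign under every alternative run. With 1 library left out they were 3.55 to 4.34 for CDH7, 2.29 to 2.59 for SLITRK3, 2.79 to 3.39 for EPHA3 and -2.03 to -1.75 for TENM1, and with the block and 1 pair left out 3.35 to 4.34, 2.27 to 2.56, 2.85 to 3.54 and -2.02 to -1.79. Other normalizations, filters, tests and prior counts gave 3.80 to 3.88, 2.41 to 2.44, 2.98 to 3.12 and -1.92 to -1.87. The number of genes called between the lines depended on the fit: 24 in edgeR, 280 in DESeq2, 5 in limma-trend, 2 to 15 with 1 library left out, 3407 with the replicate block and 3266, 2550 and 2250 with the block without the std pair, the pair of replicate 2 and that of replicate 3. For the 90 relatives the counts were 0, 8 (DESeq2), 29 (replicate block) and 27, 22 and 21 (block, the same pairs left out), and 0 to 0 with 1 library left out. For the 40 neighbours they were 1, 3 (DESeq2), 0 (limma-trend), 9 (replicate block), 0 to 0 with 1 library left out and 6 to 9 with the block and 1 pair left out. The pair effect was called for 8193 genes, and for 3138 to 7757 with 1 pair left out. Of the 4 genes it called 1, and 0 to 3 with 1 pair left out. Leaving out samples leaves fewer of them to test; otherwise the cause was not tested. Genes near a fold change of 0 changed sign: SERPINB8, the nearest neighbour before CDH7 (-0.01), was 0.0087 with scaling by total count, 0.0678 in limma-trend, 0.0244 with the replicate block, -0.22 to 0.41 with 1 library left out, and -0.28, 0.0362 or 0.37 with the block and 1 pair left out. With 1 library left out CDH1 ranged from -0.0635 to 0.16, ADGRL1 from -0.0705 to 0.0739 and STAG2 from -0.076 to 0.0881. With the block and 1 pair left out ADGRL1 was -0.0225, -0.0045 or 0.08 and STAG2 reached -0.0055. Depth limits EPHA3 and CDH7 in pBabe-vector most, where single libraries hold as few as 7 and 24 reads.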

Other observations

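The genes whose log2 CPM followed each of the 4 genes most closely over the 6 libraries were found among 14055 genes with a mean of at least 1 CPM. For CDH7 they were ISCU, an iron-sulfur cluster scaffold (Pearson's r = 0.997), YBX3, a nucleic acid binding protein (0.989), and VAMP1, a vesicle protein (0.985). All 3 lie on chromosome 12, where the median log2 fold change between the lines was 0.30, and their own log2 fold changes were 0.41, 0.40 and 0.66. For SLITRK3 they were AAED1 (r = 0.992), RNF128, a ubiquitin ligase (0.991), and KCNJ3, a potassium channel (0.990). KCNJ3 had a mean of 5.39 CPM in pBabe-GNA13 and 0.509 CPM in pBabe-vector.

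For EPHA3 the closest genes were METTL10 (r = 0.994), LIMA1, an actin-binding protein (0.990), and ATF7IP2 (0.990). ATF7IP2 had a mean of 1.98 CPM in pBabe-GNA13 and 0.0717 CPM in pBabe-vector. For TENM1 they were EIF3A, a translation initiation factor (r = 0.997), FBXO7, an F-box protein (0.996), and ASPH, a hydroxylase (0.995). LIMA1 also lies on chromosome 12, AAED1 on chromosome 9 and FBXO7 on chromosome 22, which were shifted between the lines as well. RNF128, KCNJ3, METTL10, ATF7IP2, EIF3A and ASPH lie on other chromosomes. EIF3A followed TENM1 with a log2 fold change of -0.10, against -1.92 for TENM1 itself, so a high r does not stand for a like size of change. These values describe 6 libraries that share the contrast between the lines, and carry no test.

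Besides chromosomes 12 (0.30) and 20 (-0.21), chromosomes 22 and 9 were shifted among genes with a mean of at least 1 CPM. On chromosome 22 the median log2 fold change was -0.15, and 13 of 314 such genes were higher and 120 lower with the block. On chromosome 9 it was 0.12, where 151 of 498 were higher and 20 lower.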
